A study of Mus musculus with 9 samples.

Results

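The MHC class II presentation genes were the 10 rows of the tumor count table whose gene symbol was H2-Aa, H2-Ab1, H2-Eb1, Cd74, H2-DMa, H2-DMb1, H2-DMb2, H2-Oa, H2-Ob or Ciita. All 10 symbols were found among the 41128 genes of the table, and all 10 were among the 14057 genes with enough counts to be tested. RNA from the lymphomas of 3 Bcl6 mice and 6 Smc3/Bcl6 mice was sequenced, with 1 library per tumor, and the deposited values were unnormalized read counts per gene. Both groups carried the IµBcl6 transgene, which keeps Bcl6 expressed in B cells, and were heterozygous for Cγ1-Cre, which acts in B cells that have entered the germinal center. Bcl6 tumors were Smc3 wt/wt and Smc3/Bcl6 tumors were Smc3 wt/-, so that the genotypes differed by deletion of 1 Smc3 allele, the gene of a core subunit of the cohesin ring. The study drew its tumor model as bone marrow of these genotypes transplanted into irradiated mice that were then immunized repeatedly with sheep red blood cells, so cells of the host could be part of each sample. Ages were not given in the sources used here. The tissue label was mesenteric lymph node for replicate 1 of each genotype and lymph node for the other tumors. The labels number the replicates without saying what a number stands for, and the p-values below measure the spread between these tumors.

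MHC class II molecules are pairs of an alpha and a beta chain that carry peptides from the endosome to the cell surface, where CD4 T cells read them. B cells, dendritic cells and macrophages make them constitutively or on activation, and in the germinal center B cells use them to obtain help from T cells. H2-Aa and H2-Ab1 encode the alpha and beta chains of I-A, and H2-Eb1 encodes the beta chain of I-E. Cd74, the invariant chain, holds new class II molecules on their way to the endosome and leaves a peptide, CLIP, in the groove. H2-DM, made of H2-DMa with H2-DMb1 or H2-DMb2, removes CLIP and edits the peptides, and H2-DO, made of H2-Oa and H2-Ob, inhibits H2-DM and is largely a B cell protein. Ciita is the coactivator that switches these genes on. It does not bind DNA itself but docks on RFX, CREB and NF-Y proteins that sit on the X and Y boxes of their promoters.

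Total counts ranged from 10156728 to 17774577 per tumor. Smc3 ranged from 88.1 to 126 CPM (counts scaled to library size with edgeR's TMM factors) in Bcl6 tumors and from 27.9 to 111 CPM in Smc3/Bcl6 tumors (89.7 to 111 CPM without tumor 2), with no call between genotypes (edgeR log2 fold change -0.19 with SE 0.38, adjusted p = 1 from edgeR). The paper reported that reduced Smc3 expression was verified in Smc3/Bcl6 tumors, and showed RT-qPCR of Smc3 mRNA for both genotypes. Smc3/Bcl6 tumor 2 stood apart in that its log2 CPM relative to the median of the other 8 tumors fell with the exon length of a gene. Across 13975 genes Spearman's rho between this deviation and exon length was -0.465 in that tumor and between -0.143 and 0.199 in the others. The fold changes of the 10 genes are therefore given with and without Smc3/Bcl6 tumor 2.

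Of the 10 genes, 8 lay on chromosome 17 of GRCm38, between 34092340 (the start of H2-Oa) and 34316674 (the end of H2-Eb1). In the order of the chromosome they were H2-Oa, H2-DMa, H2-DMb2, H2-DMb1, H2-Ob, H2-Ab1, H2-Aa and H2-Eb1, all on the plus strand except H2-Aa. Ciita lay on chromosome 16 from 10480059 to 10528418. RefSeq promoter windows of 300 bases (250 before to 50 after a start site, GRCm38.p6) were matched for 7 of the 10 genes, with 8 windows, and H2-Ab1, Cd74 and Ciita were not matched. The windows were searched on both strands for the X box core CCNNGCAAC and for CCAAT, the box bound by NF-Y. The core was in 3 of 8 windows, against 4.84% of 32851 windows of all genes, and CCAAT was in 7 of 8, against 37.4%. The core lay on the gene's strand in H2-Oa and H2-Ob. In H2-DMa it lay on the other strand at position -7, and the CCAAT of H2-DMa was in its other window. The Y box letters TGATTGG, which overlap CCAAT read on the other strand, and the end of the X box, AACNNATGA, which can overlap the X box core, were picked after these sequences had been read. TGATTGG was in 6 of 8 windows (7.82% of all) and AACNNATGA in 4 of 8 (2.85% of all). AACNNATGA followed on the gene's strand by TGATTGG after 10 to 25 bases was in the windows of H2-DMb2, H2-DMb1, H2-Ob and H2-Eb1 and in 5 windows of all genes (0.0152%), the fifth being that of BC051142 on the same chromosome.

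The stretches that hold the Y box are shown 5′ to 3′ on each gene's strand, because the relation of these genes to Ciita is described below and Ciita works through these boxes. Capitals mark matches to CCNNGCAAC, AACNNATGA and TGATTGG.
H2-Oa (chr17:34092282-34092365, plus strand): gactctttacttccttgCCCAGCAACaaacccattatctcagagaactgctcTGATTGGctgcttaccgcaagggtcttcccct
H2-DMb2 (chr17:34145105-34145188, plus strand): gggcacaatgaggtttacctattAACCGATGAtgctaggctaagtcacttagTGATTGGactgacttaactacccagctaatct
H2-DMb1 (chr17:34153076-34153159, plus strand): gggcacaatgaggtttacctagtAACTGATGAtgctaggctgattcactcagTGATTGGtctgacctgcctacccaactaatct
H2-Ob (chr17:34238794-34238877, plus strand): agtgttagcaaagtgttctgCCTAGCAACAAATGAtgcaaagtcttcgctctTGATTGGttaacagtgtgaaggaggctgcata
H2-Aa (chr17:34287842-34287925, minus strand): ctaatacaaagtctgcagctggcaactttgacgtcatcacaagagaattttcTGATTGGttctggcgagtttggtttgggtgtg
H2-Eb1 (chr17:34305754-34305837, plus strand): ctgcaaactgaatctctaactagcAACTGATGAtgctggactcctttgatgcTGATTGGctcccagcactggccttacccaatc
The Y box began between positions -92 and -45 from the RefSeq start site in these 6 stretches. A match is a description of the letters and was not tested as a binding site.

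The 10 genes together took between 2.88% and 4.67% of all counts of a tumor. Cd74 (chromosome 18, 60803848 to 60812652) was the gene with the most counts in 6 of 9 tumors and was among the first 3 in the others. Per kilobase of exon, Cd74 had a median of 10659 CPM per kb over the 9 tumors. H2-Ab1 followed with 2723, H2-Eb1 with 1474, H2-Aa with 1188, H2-DMb2 with 482 and H2-DMa with 160 CPM per kb. H2-Oa (115), H2-Ob (112) and H2-DMb1 (102) came next, and their ranges over the tumors overlapped. Ciita was lowest with 49.1 CPM per kb. The ranges of neighbours in this order overlapped over the tumors except between Cd74 and H2-Ab1, H2-Aa and H2-DMb2, and H2-DMb1 and Ciita. With the length of the principal transcript in place of all exons, H2-Aa stood above H2-Eb1 and H2-Ob above H2-Oa. By that length the ranges of Cd74 and H2-Ab1 overlapped, as did those of H2-DMb1 and Ciita. Only the neighbours H2-Eb1 and H2-DMb2 were then free of overlap.

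**Figure D1:**
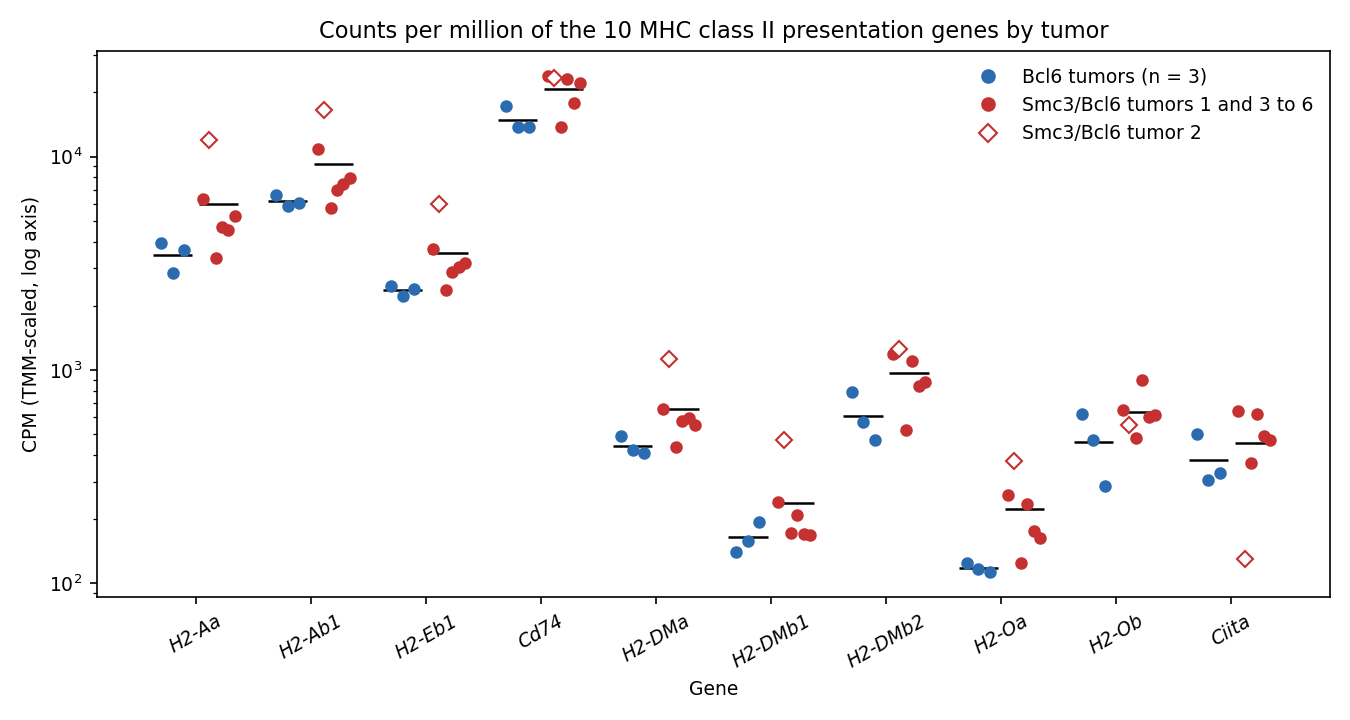
CPM (TMM-scaled, log axis) of the 10 genes in each of 3 Bcl6 tumors (blue) and 6 Smc3/Bcl6 tumors (red, with tumor 2 as an open diamond), 1 point per tumor, and lines at the group means. The groups overlapped for all 10 genes, and tumor 2 was highest for H2-Aa, H2-Ab1, H2-Eb1, H2-DMa, H2-DMb1, H2-DMb2 and H2-Oa and lowest for Ciita, at 131 CPM.

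The genotype comparison asked whether loss of 1 Smc3 allele went with another level of class II presentation genes in the lymphomas. By Hi-C, the paper listed MHC class II genes, not named singly, among those whose enhancer-promoter loops were weaker in Smc3/Bcl6 tumors. Loops are another measure than RNA, and the relation of the 2 was not tested here. The fitted log2 fold change (Smc3/Bcl6 over Bcl6) was above 0 for 10 of 10 genes, with a median of 0.58 and a range of 0.26 to 0.91. Over all genes tested the median was 0.06 and 57.4% were above 0. Many of the 10 genes rose and fell together across the 9 tumors (Pearson's r = 0.99 for H2-Aa and H2-Eb1), so they are not 10 separate results. A gene was called where its unadjusted p was under 0.1 and its log2 fold change beyond 0.56 in either direction. By this rule H2-Oa and H2-DMb2 were higher in Smc3/Bcl6 tumors, 0 genes were lower and 8 were not called. Of all genes tested, 2.15% were called, 1.28% as higher and 0.868% as lower. The adjusted p was 1 for all 10 genes (edgeR, Benjamini-Hochberg), and 0 of 14057 genes reached an adjusted p below 0.05, while 79 had an unadjusted p under that value. The groups were free of overlap for 0 of the 10 genes and for 0.484% of all genes.

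H2-Oa, the alpha chain of the H2-DM inhibitor H2-DO, had the highest fold change of the 10. It had 125, 116 and 113 CPM in Bcl6 tumors 1 to 3. In Smc3/Bcl6 tumors 1 to 6 it had 259, 376, 124, 237, 175 and 162 CPM. All Smc3/Bcl6 tumors but tumor 3, which fell just under Bcl6 tumor 1, lay above every Bcl6 tumor. The means were 118 ± 6.25 CPM (SD, n = 3) and 222 ± 90.0 CPM (SD, n = 6), the log2 fold change was 0.91 (standard error 0.35, unadjusted p = 0.0272, adjusted p = 1 from edgeR), and exact permutation of log2 CPM, two-sided, gave p = 0.0476. Without Smc3/Bcl6 tumor 2 the Smc3/Bcl6 mean was 191 ± 55.1 CPM (SD, n = 5), the log2 fold change was 0.71 (edgeR, unadjusted p = 0.0179) and the exact permutation p was 0.0714. H2-Oa was called with each tumor left out in turn and in a fit blocked by number over replicates 1 to 3 (0.93, edgeR, unadjusted p = 0.0673), but not with that block and a correction for gene length and GC content together (0.58, edgeR, unadjusted p = 0.121), a fit that called 0 of the 10 genes and 2.38% of all. It was not called either with the block over replicates 1 and 3 (0.59, edgeR, unadjusted p = 0.148), where 0 of the 10 genes and 1.74% of all were called. BC051537 overlaps its exons on the opposite strand.

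H2-Ob, the beta chain of H2-DO, had 621, 470 and 287 CPM in Bcl6 tumors 1 to 3. The Smc3/Bcl6 tumors had 649, 550, 478, 900, 603 and 615 CPM in the order of their numbers. Bcl6 tumor 1 lay above 4 of the 6 Smc3/Bcl6 tumors, and the log2 fold change of 0.46 was not called (standard error 0.32, unadjusted p = 0.174, adjusted p = 1 from edgeR). Without Smc3/Bcl6 tumor 2 it was 0.52 (edgeR, unadjusted p = 0.0969), under the fold threshold. H2-Ob was also the only one of the 9 genes other than Ciita that was not raised in Smc3/Bcl6 tumor 2, with a difference of -0.15 in log2 CPM from the median of the others.

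H2-DMb2, a beta chain of the peptide editor H2-DM, had 790, 571 and 471 CPM in Bcl6 tumors 1 to 3. In Smc3/Bcl6 tumors 1 to 6 it had 1183, 1252, 525, 1101, 843 and 876 CPM. Smc3/Bcl6 tumor 3 lay within the Bcl6 range and the other 5 above it. The log2 fold change was 0.66 (standard error 0.34, unadjusted p = 0.0799, adjusted p = 1 from edgeR), and 0.59 without Smc3/Bcl6 tumor 2 (edgeR, unadjusted p = 0.0758), while the exact permutation p of log2 CPM was 0.0833 and 0.125. This call rested on single tumors. It was lost without Bcl6 tumor 2 (unadjusted p = 0.159), Bcl6 tumor 3 (0.249), Smc3/Bcl6 tumor 1 (0.133) or Smc3/Bcl6 tumor 6 (0.102), and with the replicate block (0.194), all from edgeR.

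H2-DMb1, the other H2-DM beta chain, had 141, 159 and 194 CPM in Bcl6 tumors 1 to 3. In the Smc3/Bcl6 tumors it had 241, 469, 172, 210, 171 and 168 CPM, so that 3 of 6 lay above the highest Bcl6 tumor. Its fold change was not called (0.53, standard error 0.37, edgeR, unadjusted p = 0.182) and was 0.23 without Smc3/Bcl6 tumor 2. The principal transcripts of H2-DMb1 and H2-DMb2 were 94.4% identical over 1255 aligned bases, with 221 bases as the longest identical run, so the split of reads between them is uncertain. H2-DMa, the alpha chain of both forms, had 488, 421 and 410 CPM in Bcl6 tumors. Its lowest, median and highest values in Smc3/Bcl6 tumors were 436, 586 and 1127 CPM, and it was not called (0.58, standard error 0.32, edgeR, unadjusted p = 0.104). Without Smc3/Bcl6 tumor 2 its fold change was 0.37 (edgeR, unadjusted p = 0.0604). Brd2 overlaps exons of H2-DMa on the opposite strand.

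H2-Aa, the I-A alpha chain, had 3935, 2851 and 3636 CPM in Bcl6 tumors 1 to 3. In Smc3/Bcl6 tumors 1 to 6 it had 6307, 11926, 3365, 4676, 4514 and 5244 CPM. Of the Smc3/Bcl6 tumors 5 lay above the Bcl6 tumors and tumor 3 within them. The log2 fold change was 0.79 (standard error 0.44) with an unadjusted p of 0.1001 from edgeR, which missed the threshold. It was 0.48 without tumor 2. Without Smc3/Bcl6 tumor 3, H2-Aa, H2-Eb1 and H2-DMa were called as well, which made 5 genes called, against 4.51% of all genes in that fit (2.19% as higher and 2.32% as lower).

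H2-Ab1, the I-A beta chain, had 6633, 5852 and 6070 CPM in Bcl6 tumors, and 5751, 7714 and 16605 CPM as the lowest, median and highest of the Smc3/Bcl6 tumors. H2-Eb1, the I-E beta chain, had 2470, 2233 and 2386 CPM in Bcl6 tumors, and 2370, 3119 and 6004 CPM in the same summary of Smc3/Bcl6 tumors. The Bcl6 tumors were close together for both genes, and 5 of 6 Smc3/Bcl6 tumors lay above them, with tumor 2 highest. Neither was called (0.58, edgeR, unadjusted p = 0.175 for H2-Ab1, and 0.58, unadjusted p = 0.128 for H2-Eb1). Without Smc3/Bcl6 tumor 2 the fold changes were 0.35 for H2-Ab1 and 0.37 for H2-Eb1 (edgeR, unadjusted p = 0.269 and 0.132). Cd74 had 17237, 13716 and 13720 CPM in Bcl6 tumors, and 13814, 22545 and 23981 CPM as the lowest, median and highest of the Smc3/Bcl6 tumors. Again 5 of 6 Smc3/Bcl6 tumors lay above the Bcl6 tumors, and tumor 3 lay within their range. Its fold change was 0.47 (standard error 0.34, edgeR, unadjusted p = 0.190), and 0.45 without tumor 2.

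Ciita had 500, 304 and 329 CPM in Bcl6 tumors 1 to 3. In Smc3/Bcl6 tumors 1 to 6 it had 643, 131, 366, 621, 488 and 468 CPM. Tumors 1 and 4 lay above the Bcl6 tumors, tumor 2 far below them and the other 3 within their range. Ciita was not called (0.26, standard error 0.45, edgeR, unadjusted p = 0.571, and p = 0.845 in the exact permutation test). Without tumor 2 the fold change was 0.47 (edgeR, unadjusted p = 0.0860), under the fold threshold. With the replicate block over replicates 1 to 3 it turned to -0.25 (edgeR, unadjusted p = 0.606). Dexi overlaps exons of Ciita on the opposite strand, and the strand setting of the counting was not given in the sources used here.

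Without Smc3/Bcl6 tumor 2, H2-Oa and H2-DMb2 were again the 2 genes called, and 3.82% of 13942 genes were called, 2.43% as higher and 1.39% as lower. All 10 fold changes were above 0, with a median of 0.46 and a range of 0.23 to 0.71, as were 53.2% of all genes. These groups were free of overlap for 0 of the 10 genes and for 1.42% of all genes. With the replicate block over replicates 1 to 3, 1 of the 10 genes, H2-Oa, was called, against 2.24% of genes, 0.337% as higher and 1.90% as lower. DESeq2 called 6 genes (H2-Aa, H2-Ab1, H2-Eb1, H2-DMa, H2-DMb2 and H2-Oa), against 3.15% of genes. The adjusted p of these 6 genes was 1. Smc3/Bcl6 tumor 3 lay within the Bcl6 range for 9 of the 10 genes and below it for H2-Ab1, and leaving it out gave the highest count of any tumor left out, 5 genes, and also the highest share over all genes, 4.51%.

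**Figure D2:**
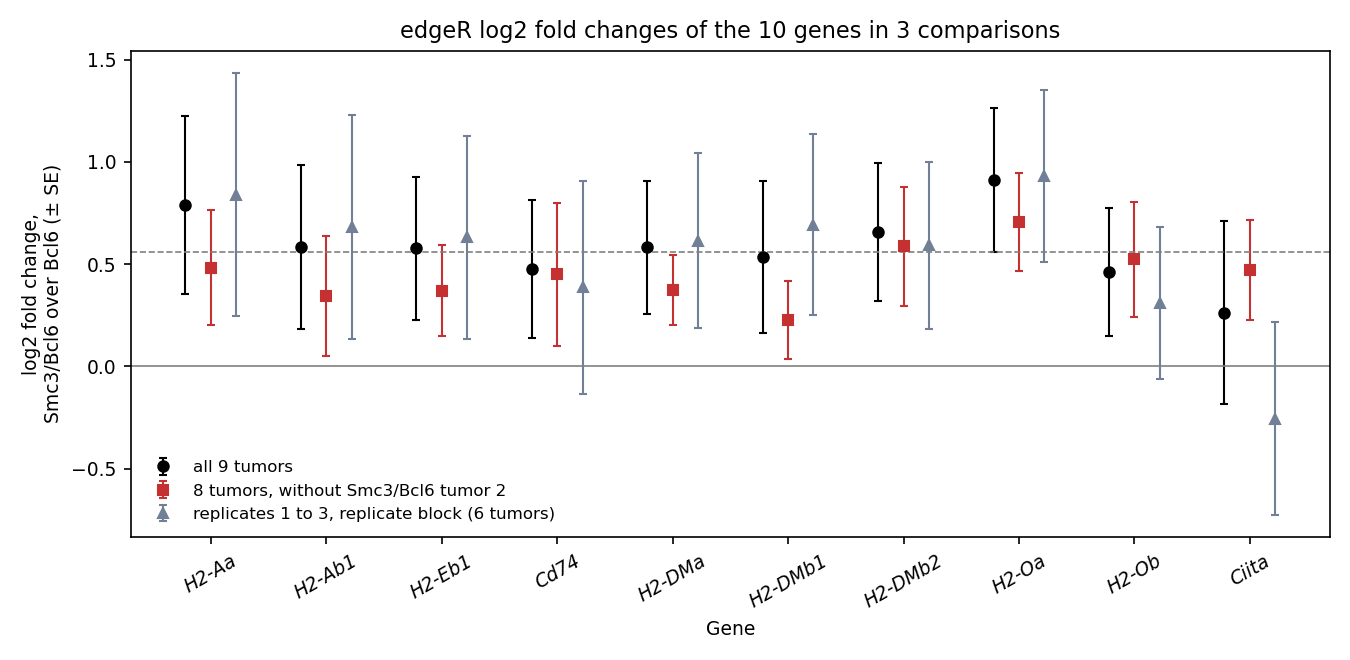
edgeR log2 fold change (Smc3/Bcl6 over Bcl6) ± standard error of each gene over all 9 tumors (circles), over 8 tumors without Smc3/Bcl6 tumor 2 (squares) and over replicates 1 to 3 with a replicate block (triangles). The dashed line is the fold threshold of 0.56. Values were above 0 except for Ciita with the block (-0.25), and H2-Oa was highest in all 3 comparisons.

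In Smc3/Bcl6 tumor 2 the deviations of the 10 genes from the median of the other tumors differed in sign. The deviation was 1.501 for H2-Aa, 1.45 for H2-DMb1, 1.398 for H2-Oa, 1.29 for H2-Ab1, 1.17 for H2-Eb1, 1.12 for H2-DMa, 0.62 for H2-DMb2, 0.41 for Cd74, -0.15 for H2-Ob and -1.87 for Ciita on the log2 scale. Ciita and H2-Ob have the longest exons of the 10 (9535 and 5380 bases), and H2-Oa the shortest (1407 bases). Over all genes the median deviation in this tumor was 1.05 in genes of up to 2060 bases and -1.17 in genes of 7200 bases or more. The part of exon length in the values of single genes was not tested. With an offset for length and GC content over 9 tumors, H2-Aa, H2-Oa and H2-Ob were called and H2-DMb2 was not, against 2.29% of genes.

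**Figure D3:**
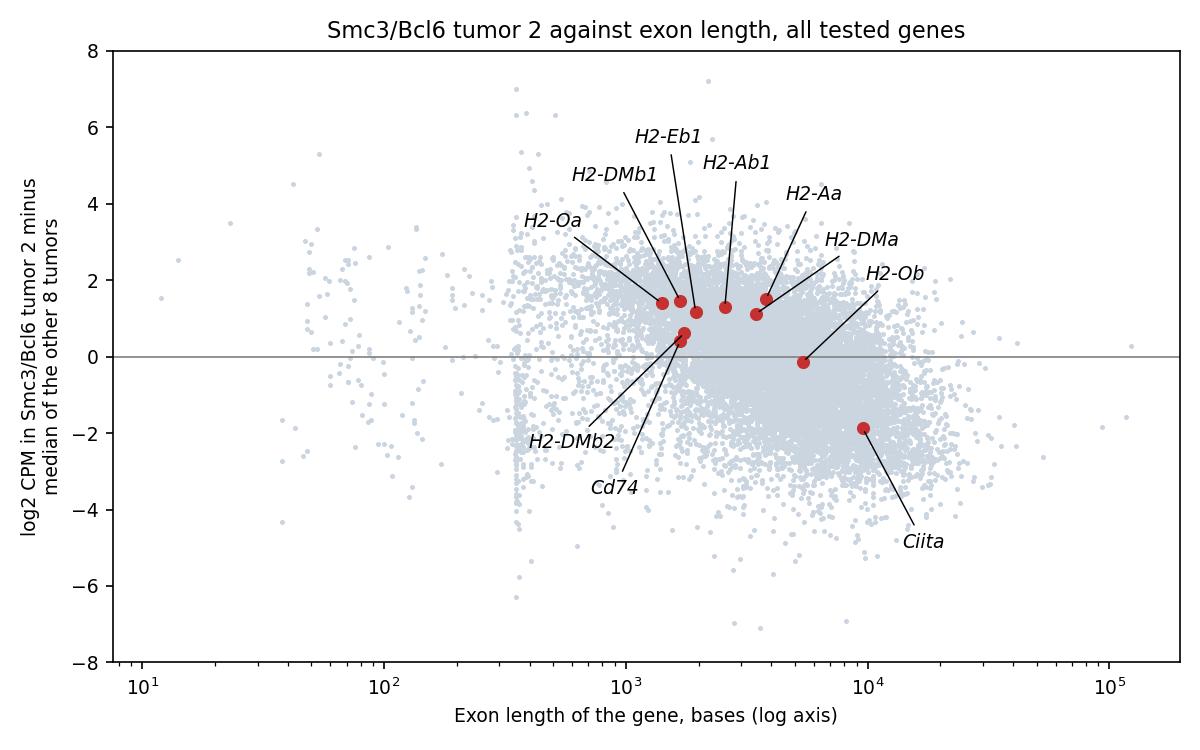
Log2 CPM in Smc3/Bcl6 tumor 2 minus the median of the other 8 tumors (vertical axis) against the exon length of a gene in bases (log axis), for 13975 genes (grey) and the 10 class II presentation genes (red, named). Ciita lay at -1.87, below 0 like most genes of its length, and H2-Aa lay highest of the 10 at 1.501.

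The relation to Ciita was the correlation of log2 CPM across tumors, computed for these 9 genes among 14056 genes against Ciita. Over all 9 tumors Pearson's r ranged from -0.64 (H2-DMb1) to 0.45 (H2-Ob), with a median of -0.44 and 3 of 9 above 0. Exact permutation p was below 0.05 for 0 of 9, the lowest being 0.0994 (adjusted 0.216), for H2-DMb1 with its negative r. Of all genes, 4349 of 14056 had such a p with r of either sign, and 17.7% had it with r above 0. Spearman's rho was close to 0 for H2-DMb1 and between 0.20 and 0.85 for the other 8, and for H2-Ob, the highest, the exact permutation p was 0.00607 (adjusted 0.242). Without the 2 tumors farthest from the median of Ciita, Smc3/Bcl6 tumor 2 and Bcl6 tumor 2, r ranged from 0.38 to 0.98 (n = 7). The negative values rested on Smc3/Bcl6 tumor 2, since r was above 0 for 9 of 9 genes without it alone (median 0.86) and for 2 of 9 without Bcl6 tumor 2 alone (median -0.56).

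Over the 8 tumors without Smc3/Bcl6 tumor 2, r was above 0 for 9 of 9 genes with a median of 0.86, against a median of 0.04 over all genes. H2-DMb2 had r = 0.95 (exact permutation p = 0.00117, adjusted p = 0.367 over all genes) and rho = 0.83 (p = 0.0154, adjusted 0.503). Cd74 had r = 0.92 (exact permutation p = 0.00479, adjusted 0.367) and rho = 0.90 (p = 0.00456, adjusted 0.503). These 2 genes followed Ciita across both genotypes, with the lowest values in Bcl6 tumors 2 and 3 and Smc3/Bcl6 tumor 3 and the highest in Smc3/Bcl6 tumors 1 and 4.

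H2-DMa had r = 0.91 and rho = 0.86 (exact permutation p = 0.00308 and 0.0107). H2-Oa had r = 0.89 and rho = 0.90 (0.00402 and 0.00456, exact permutation), and H2-Ob had r = 0.83 and rho = 0.93 (0.00399 and 0.00223, exact permutation). H2-Aa had r = 0.86 and rho = 0.81 (0.00645 and 0.0218, exact permutation), H2-Eb1 r = 0.81 and rho = 0.76 (0.0217 and 0.0368, exact permutation) and H2-Ab1 r = 0.77 and rho = 0.71 (0.0160 and 0.0576, exact permutation). H2-DMb1 had the lowest value, r = 0.47 and rho = 0.43 (0.243 and 0.299, exact permutation). An unadjusted p below 0.05 with r above 0 was found for 8 of these 9 genes and for 5.34% of all genes, and the adjusted p was at least 0.367 for r and 0.503 for rho. High r was not limited to class II genes. Over these 8 tumors r with Ciita ran from -0.95 to -0.80 for the T cell markers listed below. For the B cell markers it ran from -0.02 to 0.83. The part of cell make-up in the relation to Ciita was not tested.

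Leaving out the 2 tumors farthest from the Ciita median among these 8, Bcl6 tumors 2 and 3, gave r from 0.65 to 0.97 (n = 6). Within the lymph node label r was above 0 for 9 of 9 genes, with a median of 0.86 over 6 tumors. The mesenteric lymph node label holds 2 tumors, too few for a value. Taken as deviations from the genotype means, r was again above 0 for 9 of 9 genes, but the median was 0.49, the lowest value 0.000403, and the exact permutation p was below 0.05 for 2 of 9 genes in place of 8. As deviations within replicate numbers 1 to 3, Smc3/Bcl6 tumor 2 included, r was above 0 for 0 of 9 genes with a median of -0.73.

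**Figure D4:**
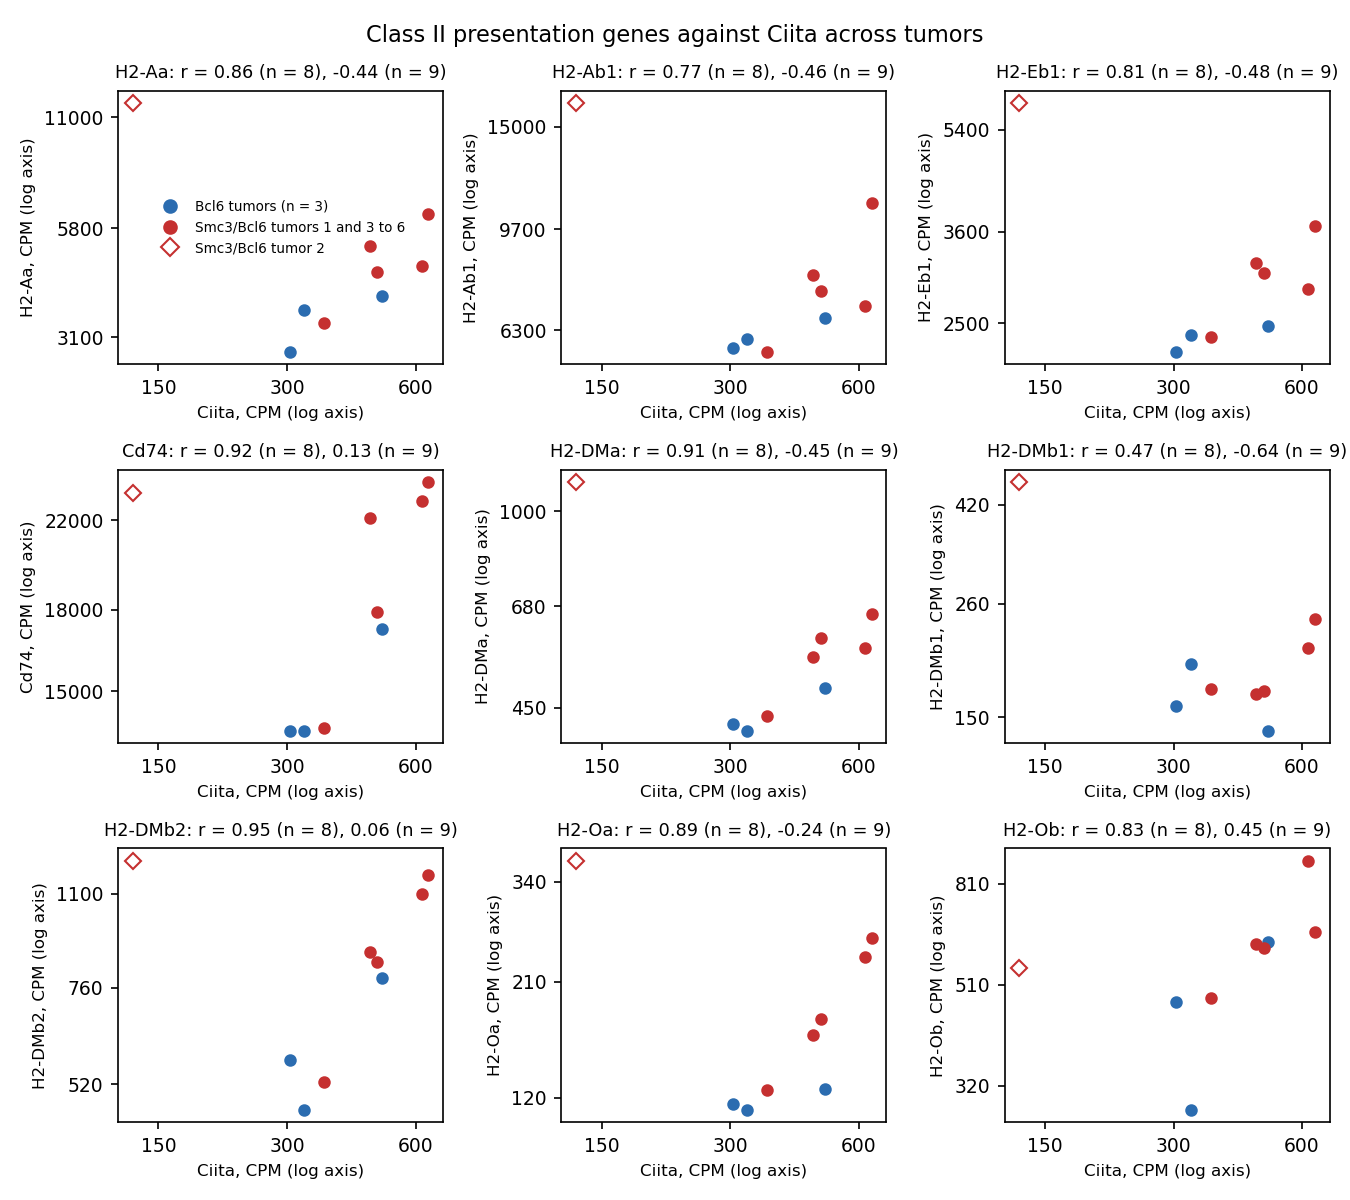
CPM of each of the other 9 genes against CPM of Ciita (both log axes), 1 point per tumor, in Bcl6 tumors (blue), Smc3/Bcl6 tumors (red) and Smc3/Bcl6 tumor 2 (open diamond), with Pearson's r of log2 CPM over 8 tumors without tumor 2 and over all 9. Tumor 2 lay alone at the left with 131 CPM of Ciita, and among the other 8 tumors r ranged from 0.47 for H2-DMb1 to 0.95 for H2-DMb2.

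Ratios of genes within a tumor compared the members with each other. The ratio of H2-DM to H2-DO (summed CPM of the chains of each) was 1.90, 1.96 and 2.69 in Bcl6 tumors and 2.30, 3.08, 1.88, 1.66, 2.07 and 2.06 in Smc3/Bcl6 tumors 1 to 6. The genotypes overlapped throughout, with a difference of -0.02 in log2 ratio (exact permutation p = 0.929), and -0.12 without tumor 2 (p = 0.482, exact permutation). Cd74 over H2-Aa was 4.38, 4.81 and 3.77 in Bcl6 tumors and 3.80, 1.96, 4.11, 4.92, 3.96 and 4.22 in Smc3/Bcl6 tumors, close to constant outside tumor 2. H2-Eb1 over H2-Ab1 ranged only from 0.340 to 0.412 over all 9 tumors, tumor 2 included.

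The geometric mean of the 9 genes over Ciita was 2.37, 3.31 and 3.00 in Bcl6 tumors, between 2.54 and 3.04 in Smc3/Bcl6 tumors other than tumor 2, and 19.1 in tumor 2. Without tumor 2 the genotypes differed by -0.03 in this log2 ratio (exact permutation p = 0.804). H2-DMb1 over H2-DMb2, a ratio chosen after the values had been seen, was 0.178, 0.278 and 0.413 in Bcl6 tumors and 0.204, 0.374, 0.328, 0.191, 0.203 and 0.192 in Smc3/Bcl6 tumors. It was highest in Bcl6 tumor 3, Smc3/Bcl6 tumors 2 and 3 and Bcl6 tumor 2, and the other 5 tumors lay between 0.178 and 0.204. The genotypes did not separate (difference -0.20 in log2 ratio, exact permutation p = 0.595).

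**Figure D5:**
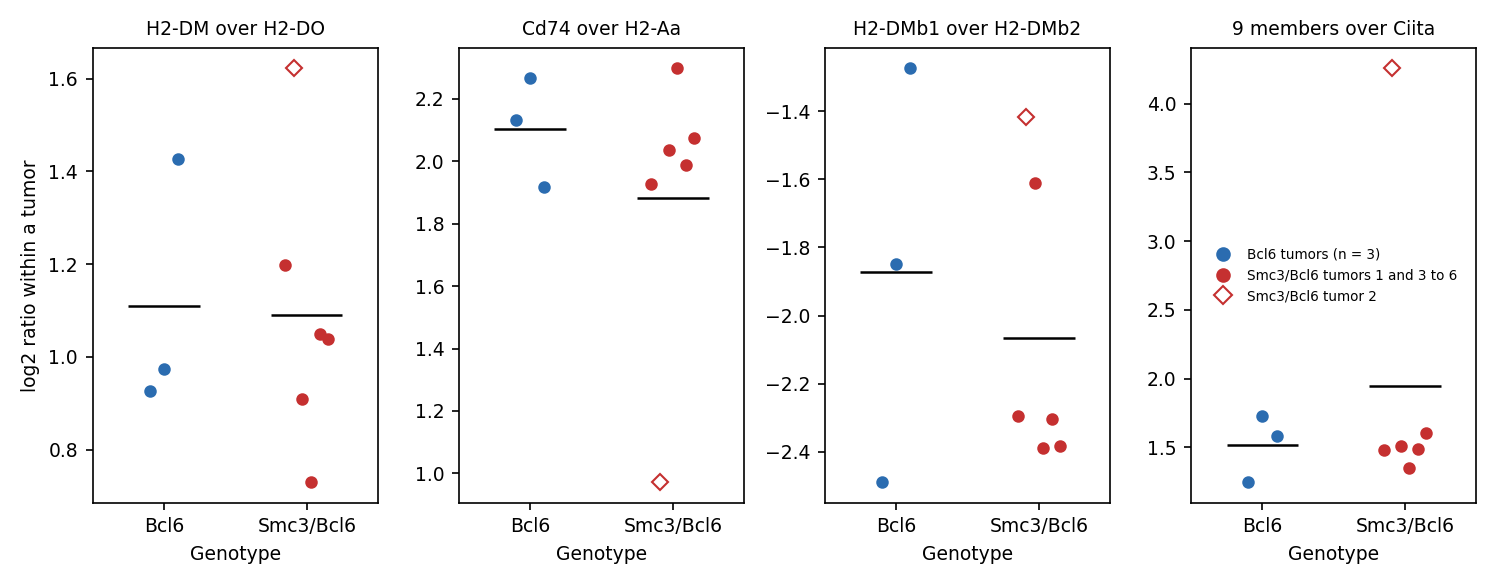
Log2 ratio within a tumor of H2-DM over H2-DO, Cd74 over H2-Aa, H2-DMb1 over H2-DMb2 and the mean of 9 class II genes over Ciita, by genotype (Bcl6 blue, Smc3/Bcl6 red, tumor 2 as an open diamond, lines at the group means). The genotypes overlapped in all 4 ratios, and tumor 2 lay apart for Cd74 over H2-Aa (0.97) and for the 9 genes over Ciita (4.26).

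The cell types that use these genes were followed by marker lists, all of whose genes were in the table. The 8 B cell markers, among them Ms4a1, Cd79a, Cd79b and Cd22, were above 0 in every tumor and summed to 2775 to 8971 CPM in Bcl6 tumors and 4879 to 11178 CPM in Smc3/Bcl6 tumors. The 8 macrophage markers summed to 377, 3336 and 7466 CPM in Bcl6 tumors 1 to 3. In Smc3/Bcl6 tumors 1 to 6 they summed to 252, 6710, 7826, 2063, 7247 and 1164 CPM. Lyz2 alone had 112, 2499 and 5424 CPM in Bcl6 tumors 1 to 3. It had 117, 4507, 5796, 235, 5897 and 96.3 CPM in Smc3/Bcl6 tumors 1 to 6, so the largest sums were mostly Lyz2. The 8 T cell markers summed to 420, 2876 and 2081 CPM in Bcl6 tumors and 126, 2890, 2484, 350, 1140 and 281 CPM in Smc3/Bcl6 tumors.

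Bcl6 tumors 2 and 3 and Smc3/Bcl6 tumor 3 had the 3 lowest values of Cd74, H2-DMb2, H2-Oa and H2-Ob of the 9 tumors. The same held for H2-Aa, H2-Ab1, H2-Eb1 and H2-DMa, but not for H2-DMb1 or Ciita. These 3 tumors had between 3336 and 7826 CPM of macrophage markers and between 2081 and 2876 CPM of T cell markers. They also had the 3 lowest B cell marker sums of the 9 tumors, 4679, 2775 and 4879 CPM, and the next lowest was 5525 CPM. Most of the macrophage sum in each of these 3 tumors was Lyz2. Every other macrophage marker was lower in Bcl6 tumor 2 than in Smc3/Bcl6 tumor 4, for example Csf1r with 118 and 720 CPM. In Smc3/Bcl6 tumor 4, Cd74 and H2-DMb2 lay above all Bcl6 tumors. Smc3/Bcl6 tumor 1, which had the highest H2-Aa, H2-Ab1 and H2-Eb1 outside tumor 2, had the lowest macrophage, T cell and dendritic cell sums of all 9 tumors. The 4 tumors with the highest H2-DMb1 over H2-DMb2 had between 3336 and 7826 CPM of macrophage markers, but Smc3/Bcl6 tumor 5, with 7247 CPM, had a ratio of 0.203. The part of these cells in the values of the class II genes was not tested. In bulk tumors fewer cells of a type and less RNA per cell cannot be told apart.

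Of these lists, 0 of 8 B cell, 0 of 6 plasma cell, 0 of 8 T cell, 0 of 8 macrophage, 0 of 8 dendritic cell and 0 of 5 stroma markers were called in either direction between genotypes by the thresholds above (edgeR). The B cell markers had a median log2 fold change of 0.37, with 7 of 8 above 0, and of 0.33 with 8 of 8 above 0 without Smc3/Bcl6 tumor 2. The T cell markers had a median of -0.58, and -1.22 without that tumor. The macrophage markers had a median of 0.27, and 0.16 without it. Over all genes the median was 0.06, and 0.03 without it. With the replicate block, Cd3e and Cd5 and the macrophage genes Csf1r, Emr1 and Mertk were called lower. Of 4 neutrophil markers 1 was called, Mpo, a granule enzyme, which was lower (-3.84, edgeR, unadjusted p = 0.0291, adjusted p = 1), with 209 CPM in Bcl6 tumor 3 and at most 17.6 CPM elsewhere. This call ended with the replicate block.

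Other genes of the pathway showed few calls. Of 7 class II promoter factors (Rfx5, Rfxap, Rfxank, Nfya, Nfyb, Nfyc and Creb1), 0 were called in either direction, with a median of 0.10. Rfx5, the RFX subunit that contacts the X box, had 43.0, 26.5 and 34.3 CPM in Bcl6 tumors, and 47.5, 8.78, 31.5, 59.4, 42.0 and 37.5 CPM in Smc3/Bcl6 tumors. Smc3/Bcl6 tumor 2 was lowest for Rfx5, as for Ciita, but for none of the other promoter factors. Rfx5 has 5497 bases of exon, and the part of exon length in its value in that tumor was not tested. Of 13 genes that regulate Ciita or open or close its chromatin, 0 were called, with a median of -0.01 and a range of -0.48 (Prdm1, which represses Ciita in plasma cells) to 0.57 (Irf4). Their most counted member was Irf8 and their least counted Pax5.

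Of 10 endosomal processing genes, which degrade the invariant chain and make peptides, 0 were called. All 10 fold changes were above 0 over 9 tumors (median 0.22), but 7 were without Smc3/Bcl6 tumor 2 (median 0.08). Lgmn, the asparagine endopeptidase, had the highest at 0.68 (edgeR, unadjusted p = 0.108). Of 3 genes of class II turnover, the ubiquitin ligases March1 and March8 and their opponent Cd83, 0 were called. Of 5 neighbours in the MHC region (Tap1, Tap2, Psmb8, Psmb9 and Brd2), 4 of them class I processing genes, 0 were called and the median was -0.01.

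Of 2 class II paralogs, 1 was called higher. H2-Ea-ps, listed as a pseudogene of the I-E alpha chain, changed by 2.03 on the log2 scale (SE 1.07, edgeR, unadjusted p = 0.0877, adjusted p = 1) on only 76 counts over all tumors. Its CPM ran from 0.176 to 0.216 in Bcl6 tumors and from 0 to 1.599 in Smc3/Bcl6 tumors, and without Smc3/Bcl6 tumor 2 the fold change was 2.06 but no longer called (edgeR, unadjusted p = 0.104). H2-Eb2 ran from 28.1 to 37.2 CPM in Bcl6 tumors and from 23.7 to 97.3 CPM in Smc3/Bcl6 tumors and was not called (0.64, edgeR, unadjusted p = 0.149).

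Among 9209 other genes with a mean log2 CPM of at least 3, those whose pattern over the 8 tumors without tumor 2 was most like that of Ciita included Rasgrp3 (Pearson's r = 0.96), Wdr5b (0.95), Mdm4 (0.95) and Mast4 (0.94). Those most like the mean of H2-Aa, H2-Ab1, H2-Eb1 and Cd74 were Aldh2 (0.99), Epcam (0.97), Cnpy3 (0.96), Eif4g3 (0.95) and Apobec3 (0.95). These values were the highest of many and describe 8 tumors. With tumor 2 included, r was -0.65 for Eif4g3, 0.25 for Wdr5b and between 0.39 and 0.98 for the other 7 named.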

How the data were processed

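Bulk RNA-seq of 9 mouse lymphomas was analyzed. The authors ran the nf-core RNA-seq pipeline, aligned reads to mm10 and Gencode transcripts with STAR, assigned them to genes with featureCounts and deposited the raw counts. The strand setting was not given in the sources used here. The table held 0 columns without a sample. Positions and exon lengths came from GENCODE M21 (GRCm38), which held 97.9% of the identifiers. The 10 genes and the lists were chosen with earlier results of these data known, and genes were named as members, as listed genes past the thresholds, as a list's most or least counted, as examples picked after the values were seen (Rfx5, Irf4, Prdm1, Lgmn, H2-Eb2), or as the 5 most correlated with a pattern. Some genes these rules pick are not reported here.

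The genotype test was edgeR's quasi-likelihood test (version 4.0.16, R 4.3.3, TMM factors, low-count filter, p adjusted by Benjamini-Hochberg over 14057 genes). The thresholds were those of the paper, 0.1 for the unadjusted p and 0.56 for the size of the log2 fold change. Single log2 CPM values (prior count 2) and ratios were compared by exact two-sided permutation over 84 splits (smallest p 0.0119) or 56 without tumor 2 (smallest 0.0179), counting splits with at least the observed absolute difference. Alternatives were 43 listed with the design and 8 added after the data were seen, including DESeq2 1.42.0, limma 3.58.1 and each tumor left out. Deviations from the group means of replicates 1 to 3 correlated between same-number tumors with r = 0.44, 0.11 and 0.16 for numbers 1, 2 and 3. The best partner of Bcl6 tumor 2 was Smc3/Bcl6 tumor 3, not tumor 2. The tumors with number 1 also share the mesenteric lymph node label. These values do not establish a pairing, and the number, taken from the labels, was used as a block only in alternative fits. In simulated counts, edgeR recovered 80% of 200 genes made to differ by 3 on the log2 scale, among 13688 tested. It also called 7 unchanged genes. The 10 genes had log2 fold changes of 0.26 to 0.91, and recovery of differences of that size was not tested. Every member had at least 1196 counts in each tumor, so counting error is small beside the spread between tumors.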

Additional observations from a re-analysis of the deposited data

Results flagged for a closer look

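Of 17 measures examined in the 6 Smc3/Bcl6 tumors, 4 had 1 tumor far from the rest by Dixon's ratio (the gap to the nearest tumor over the range, with a critical value of 0.625). For a single measure chance gives about 1 in 20. The 17 measures share genes and move together, so their count cannot be set against that rate. The tumor was Smc3/Bcl6 tumor 2 each time, which had been set apart before these measures were examined. The ratio was 0.648 for H2-DMb1, where it was highest, and 0.646 for Ciita, where it was lowest. It was 0.720 for Cd74 over H2-Aa, where it was lowest, and 0.912 for the 9 genes over Ciita, where it was highest. In this tumor values also moved with exon length, and the part of length in these 4 values was not tested.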

How the results depend on the processing

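All 10 fold changes stayed above 0 in each of the 23 alternative fits except that of Ciita with the replicate block over replicates 1 to 3 (-0.25). Against 2 genes called, DESeq2 called 6, RLE and upper-quartile scaling 4, no filter on low counts 1, an unadjusted p below 0.05 1, the replicate block 1, and the block with the length and GC offset or over replicates 1 and 3 called 0. With each tumor left out the count ranged from 1 to 5. Over all genes, 180 higher and 122 lower became 342 higher with DESeq2, 75 with limma voom, 108 with library size only, 54 with the block over replicates 1 and 3, and 316 without tumor 2 with the offset, and 192 lower with the tissue label as a covariate. Both counts moved with quality weights (642 and 1002), without a filter (576 and 812), with at least 10 counts (374 and 309), with the block (45 and 254), with the block and offset (66 and 250) and at an unadjusted p below 0.05 (46 and 31). With each tumor left out they ranged from 84 to 339 and from 61 to 321.

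Within replicates 1 to 3 (replicate block), the difference turned to -0.23 for Ciita, 0.13 for H2-DM over H2-DO, -0.0474 for H2-Eb1 over H2-Ab1 and 0.10 for H2-DMb1 over H2-DMb2. With a tumor left out these ranged from -0.00428 to 0.46 for Ciita, from -0.12 to 0.14 for H2-DM over H2-DO, from -0.50 to 0.10 for H2-DMb1 over H2-DMb2 and from -0.0342 to 0.55 for the 9 genes over Ciita.

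Over 9 tumors, the count of genes with r above 0 was 3, and 1 within lymph node or within Smc3/Bcl6 tumors, 7 with the offset, 0 with the block and 1 to 9 with a tumor left out. The r of Cd74 turned to -0.0210, -0.00399 and -0.66 and that of H2-DMb2 to -0.13, -0.13 and -0.70 within lymph node, within Smc3/Bcl6 tumors and with the block, and H2-DMb2 to -0.00119 as deviations from genotype means. H2-Ob turned to -0.14 with the block. With the offset r was 0.0818 for H2-Ab1, 0.37 for H2-Eb1, 0.0362 for H2-DMb1 and 0.57 for H2-Oa. With a tumor left out r ranged from -0.0313 to 0.92 for Cd74, -0.60 to 0.86 for H2-Aa, -0.70 to 0.77 for H2-Ab1, -0.59 to 0.91 for H2-DMa, -0.79 to 0.47 for H2-DMb1, -0.12 to 0.95 for H2-DMb2, -0.65 to 0.81 for H2-Eb1 and -0.44 to 0.89 for H2-Oa. The upper ends were those without Smc3/Bcl6 tumor 2. Over 8 tumors r was above 0 for 9 of 9 genes under all 12 alternatives. The causes were not tested.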
